A study of Mus musculus with 11 samples.

Results

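The genes described here encode the proteins of the cytosolic ribosome, read in skin fibroblasts from normal skin (NS) and from excisional wounds. They were chosen by symbol: Rpl or Rps followed by a number and the usual paralog letters, plus Rplp0, Rplp1, Rplp2 and Rpsa, leaving out processed pseudogenes with "-ps" in the name and the ribosomal S6 kinases. This gave 88 of the 47643 symbols in the deposited table. Of these, 83 reached at least 1 RPKM (mapped reads divided by transcript length and by library depth) in at least 2 libraries and were tested together with all 11979 genes that did so, 50 of them for the large and 33 for the small subunit. The 5 untested members were Rpl10l, which was listed at 0 in every library, and Rpl3l, Rps3a2, Rps3a3 and Rps4l, none of which exceeded 1.10 RPKM in any library.

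Poly-A RNA of live CD45-CD140a+ cells from mouse back was sequenced in 4 groups, 2 genotypes in 2 tissues. Per the study's methods, the sort also excluded cells positive for other immune surface markers, among them CD11b. Act mice carry an INHBA transgene under the keratin 14 promoter, so that their keratinocytes overproduce activin A, a growth factor of the TGF-β family, and their wild-type littermates (WT) were the controls. All mice were 9 to 12 weeks old and of mixed background (50% CD-1, 50% C57Bl/6). Tissue was unwounded back skin (WT NS and Act NS, 3 libraries each) or full-thickness wounds taken on day 5 (5dw: 3 libraries for WT, 2 for Act, since the study left out Act 5dw replicate 2 at quality control). Each library pooled RNA of 3 animals across sorting sessions, so each error given is the spread between pools and p-values measure only that. Libraries were made from 100 ng of RNA for NS and 200 ng for 5dw, so the RNA input and the tissue cannot be told apart.

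Ribosomal proteins are made in near-equal numbers, 1 of each per ribosome with the stalk proteins as the main exception, and their mRNAs are among the most abundant of any cell. In mammals these mRNAs begin with a C followed by a run of pyrimidines, the 5′ terminal oligopyrimidine (TOP) motif, through which mTOR signalling and the La-related protein LARP1 set how well they are translated. Fibroblasts that enter a wound divide and secrete collagen-rich matrix, both of which draw on ribosomes. RPKM measures mRNA as a share of the library and says nothing of translation, and in sorted bulk RNA a change in the mix of cells and a change per cell cannot be told apart.

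Mapped reads per library, recovered from the RPKM values, ranged from 18649318 in WT NS replicate 2 to 39702137 in WT 5dw replicate 1, and the 3 WT 5dw libraries were the deepest of the 11. The lowest read number of a protein-coding tested member in any library was 111. Pdgfra, the gene for the sorted CD140a, stood at 49.8 to 65.3 RPKM in NS and 29.6 to 37.3 RPKM in 5dw, and Ptprc, which encodes CD45, did not exceed 0.05 RPKM. Mouse Inhba ran from 3.40 to 6.93 RPKM in WT NS, from 36.3 to 91.1 in Act NS and from 15.8 to 24.0 in WT 5dw. The Act 5dw libraries held 26.2 and 50.2 RPKM. Act NS replicate 1 stood apart for the ribosomal protein genes: it was the lowest of the 6 NS libraries for 76 of the 83 tested members (91.6%), against 50.9% of all tested genes.

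Together the 88 genes made up 5.98 to 7.46% of the summed RPKM of a library. The share was 6.89, 7.27 and 6.47% in WT NS, 6.15, 7.46 and 6.66% in Act NS and 6.59, 5.98 and 6.30% in WT 5dw. The Act 5dw libraries gave 6.38 and 6.40%. Normal and wound libraries overlapped on this measure. As a share of mapped reads, which also depends on transcript length, the module held 1.82 to 2.70% in NS and 2.01 to 2.15% in 5dw. The spread between NS libraries was thus wider than that between 5dw libraries, and Act NS replicate 1 marked the low end while WT NS replicate 2 and Act NS replicate 2 marked the high end.

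**Figure D1:**
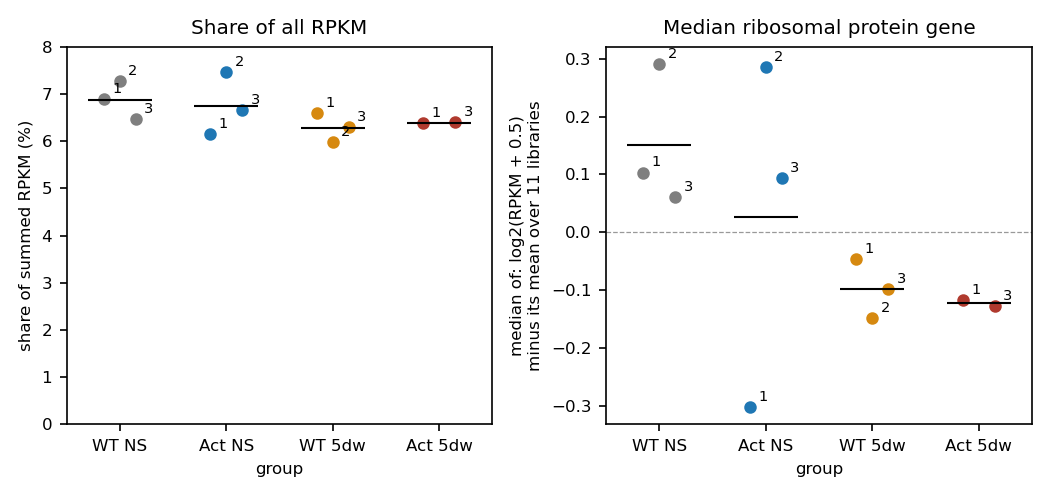
Share of each library's summed RPKM held by the ribosomal protein genes (left, percent) and the median over the 83 tested members of the log2(RPKM + 0.5) deviation from each gene's mean over the 11 libraries (right), by group. Points are libraries with their replicate number and lines are group means. Shares lie between 5.98 and 7.46% with normal and wound libraries overlapping, and the median deviation runs from -0.30 in Act NS replicate 1 to 0.29 in WT NS replicate 2.

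Although the proteins are equimolar, the deposited RPKM differed between members by more than an order of magnitude. Among the 77 protein-coding tested members that are not paralogs of another member, the mean over the 11 libraries ran from 14.8 RPKM for Rpl27 to 1001 RPKM for Rplp1, 67.6-fold, with a median of 176 and quartiles of 88.9 and 308 RPKM. For 36 protein-coding members the length by which the authors divided was over 2 times the mature transcript, and that length and log2 RPKM were correlated (Pearson r = -0.506 over 81 genes, which are not independent). Per kilobase of the mature transcript, the range narrowed to 26.8-fold, from 37.0 to 993 RPKM, around a median of 331, and the SD of log2 levels fell from 1.28 to 0.894. The share of a transcript's 100-base stretches that also occur in other genes had an r of 0.0016 with log2 RPKM over 81 genes. With the log2 level per mature transcript length, r was 0.156.

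The 5 members with the highest mean RPKM were Rplp1 (1001), Rps3a1 (691), Rplp0 (621), Rpl4 (540) and Rps15 (539), and 12 members were among the 100 highest genes of the data. Per mature transcript length the highest were Rplp1 (993), Rplp0 (759) and Rps4x (754). Rplp0 is the scaffold of the ribosomal stalk, which carries Rplp1 and Rplp2 and recruits the elongation factors. Rplp2, the partner of Rplp1 in that stalk, stood at 173 RPKM on the same per-length scale, well under Rplp1. The lowest tested members were Rpl6l (0.71 RPKM) and Rps12l1 (0.95 RPKM), which are annotated as pseudogenes, the paralogs Rpl39l (9.00) and Rpl7l1 (9.28), and Rpl27 (14.8).

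RefSeq promoters of the GRCm38.p6 build were found for 61 of the 81 protein-coding tested members, 72 promoters in all. A run of at least 8 pyrimidines between 20 bases before and 30 bases after the annotated start, as TOP mRNAs would have, was present in 48.6% of them, against 19.0% of all 32851 promoters. The letters CGGAAG, on either strand between 250 bases before and 50 bases after the start, a core of ETS-family sites, were found in 62.5% against 16.9%. AAGATGG on either strand, a core of YY1 sites, was found in 16.7% against 6.34%, while TATAAA on either strand was found in 9.72% against 13.6%. CGGAAG reads CTTCCG on the other strand, so its matches can overlap a pyrimidine run. These are matches of letters and not measured binding. The 30 bases around the annotated start follow for members that carry the wounding results below, 5′ to 3′ on the gene's strand with runs of at least 5 pyrimidines in capitals.
Rps6, chr4:86857353-86857382, minus strand: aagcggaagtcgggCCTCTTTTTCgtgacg
Rps27, chr3:90213634-90213663, minus strand: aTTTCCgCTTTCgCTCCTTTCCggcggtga
Rps9, chr7:3704026-3704055, plus strand: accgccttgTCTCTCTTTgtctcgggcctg
Rpl4, chr9:64173372-64173401, plus strand: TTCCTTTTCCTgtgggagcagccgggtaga
Rpl36a, chrX:134585639-134585668, plus strand: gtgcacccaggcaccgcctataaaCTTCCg
Rpl10, chrX:74270801-74270830, plus strand: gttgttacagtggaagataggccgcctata
Rpl41, chr10:128549154-128549183, minus strand: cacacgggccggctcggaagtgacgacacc
Rpsa, chr9:120127751-120127780, plus strand: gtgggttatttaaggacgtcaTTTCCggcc
Among these, Rps6, Rps27, Rps9 and Rpl4 show a long pyrimidine run at or near the start, while the windows of Rpl10 and Rpl41 hold no run of 5. Both kinds are found among members lower in wounds, and Rpl41, which lacks a run, is among the members with the highest log2FC. The windows shown were picked for their wounding results, and whether a run goes with the wounding difference was not tested.

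The comparison of WT 5dw with WT NS asked how wounding alters the fibroblast transcriptome. On the deposited RPKM, no ribosomal protein gene rose and 15 of 83 fell (limma on log2(RPKM + 0.5), adjusted p under 0.05). Of all tested genes, 9.45% rose and 48.8% fell. The median log2FC was -0.24 over the members (quartiles -0.35 and -0.15) and -0.40 over all genes, and 68 of the 83 members lay above the median of all genes. That order was reversed by quantile normalization (medians of -0.12 and 0.003, 21 of 83 members above) and without the filter on low genes (-0.22 and -0.083, 17 of 87 above). The SD of log2FC was 0.257 over the members and 0.849 over all genes. At an unadjusted p under 0.05, 19 of the 83 members differed, beside 7591 of all 11979 genes. Limma-voom on the recovered reads called the same 15 members. The count was 7 without WT 5dw replicate 3, 9 without WT 5dw replicate 2 and 9 without WT NS replicate 2.

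The sign of this result depends on the scaling. Scaling each library by the median ratio of its genes, in place of the total behind the deposited RPKM, moved the median log2FC of all genes from -0.40 to 0.01 in WT and from -0.31 to 0.01 in Act. With it, the median of the members turned from -0.24 to 0.24 in WT, and 13 members were called higher and 4 lower, where all genes divided into 23.4% higher and 21.2% lower. The 4 lower in both scalings were Rpl10, Rpl36a, Rpl39l and Rps27. The 13 higher were Rpsa, Rpl41, Rpl24, Rps27l, Rpl30, Rps26, Rps20, Rpl13a, Rplp0, Rpl12, Rpl7a, Rplp1 and Rpl15. Of these, Rpl30 was not called on that scale without Act NS replicate 1 or with pseudogene reads added, and Rplp1 without Act NS replicate 1 or with the replicate block. With each library scaled to the median member instead, a choice made after the data were seen, which reads each gene relative to the rest of the ribosome, Rpl41 and Rpsa were higher and Rpl10, Rpl21, Rpl36a, Rpl39l and Rps27 were lower, with 12.6% of all genes higher and 22.7% lower on that scale.

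**Figure D2:**
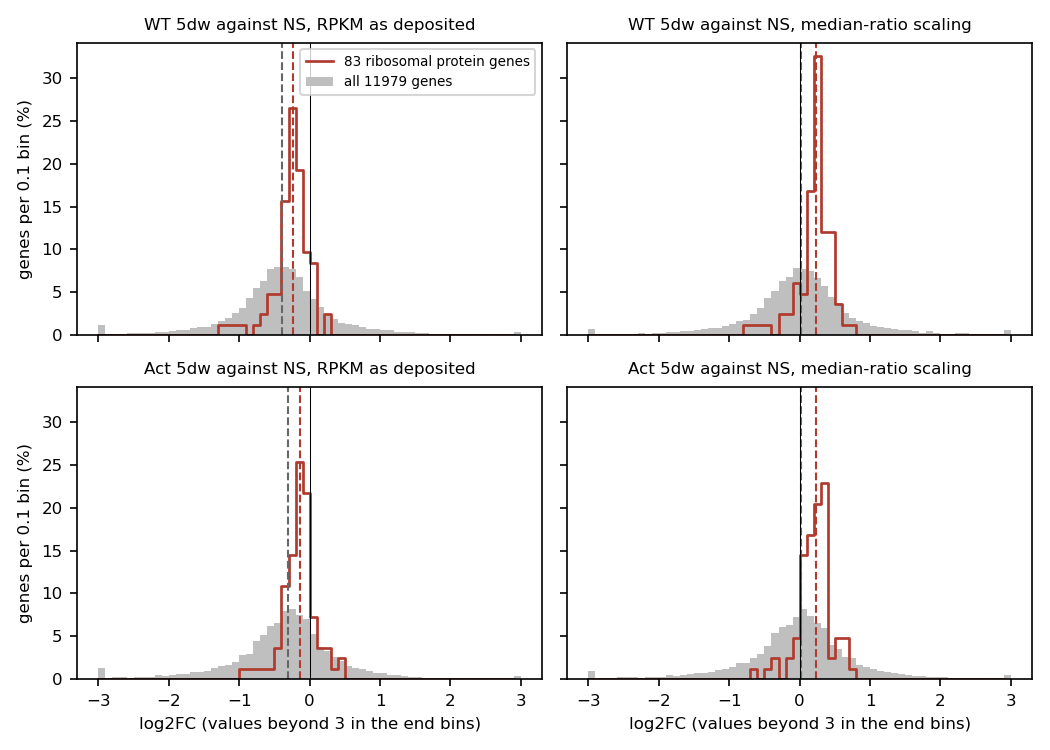
Distribution of log2FC of 5dw against NS (x axis; values beyond 3 in the end bins) in WT (top) and Act (bottom) for the RPKM as deposited (left) and after median-ratio scaling (right). The y axis is the percent of genes per bin of 0.1, with the 83 tested ribosomal protein genes as a red line, all 11979 tested genes in grey and dashed lines at the medians. In WT the median of the members is -0.24 against -0.40 for all genes on the left and 0.24 against 0.01 on the right.

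Rpl36a, a large-subunit protein gene on the X chromosome (134585654-134588062, GRCm38), had the lowest log2FC. It was read at 50.3, 60.5 and 41.6 RPKM in WT NS and at 20.2, 20.8 and 22.5 RPKM in WT 5dw. In Act mice it was at 32.6, 66.7 and 48.7 RPKM in NS and at 28.1 and 20.1 RPKM in 5dw. Every wound library was below every normal one, with a log2FC of -1.23 in WT (SE 0.240, limma adjusted p = 0.00147) and -0.98 in Act (SE 0.268, adjusted p = 0.0122). After median-ratio scaling the difference was -0.76 in WT (adjusted p = 0.0164) and -0.62 in Act (adjusted p = 0.0651). Of its 100-base stretches, 83.6% also occur in other genes, so part of its reads may have been assigned elsewhere.

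Rpl10, also on the X chromosome, encodes a protein that joins the large subunit late, in the cytoplasm, and is needed for the subunits to pair. Its level was 174, 171 and 139 RPKM in WT NS and 84.5, 75.9 and 71.5 RPKM in WT 5dw. In Act mice it was 118, 134 and 148 RPKM in NS and 79.3 and 68.8 RPKM in 5dw. Again no wound library reached a normal one, and Rpl10 was called lower in both genotypes also after median-ratio scaling (log2FC in WT -1.05, SE 0.144, adjusted p = 0.000181, scaled -0.57 with adjusted p = 0.00600; in Act -0.84, SE 0.161, adjusted p = 0.00191, scaled -0.47 with adjusted p = 0.0281). On the deposited scale it kept its call in both genotypes without any 1 of the 11 libraries, while median-ratio scaling without Act NS replicate 1 gave an adjusted p of 0.0518 in Act. Other genes share 91.6% of its 100-base stretches.

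Rpl39l is a paralog of Rpl39 best known from male germ cells. Its WT NS levels were 10.7, 14.5 and 11.7 RPKM and its WT 5dw levels 5.18, 7.02 and 6.36 RPKM. Act NS gave 10.4, 10.5 and 10.3 RPKM and Act 5dw 6.51 and 5.82 RPKM. The groups did not overlap, the log2FC was -0.94 in WT (SE 0.141, adjusted p = 0.00033) and -0.71 in Act (SE 0.158, adjusted p = 0.00426), and no 100-base stretch of Rpl39l occurs in another gene. After median-ratio scaling the WT call held (-0.48, adjusted p = 0.0217) and the Act call did not (-0.36, adjusted p = 0.101).

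Rps27, a small-subunit protein with a zinc finger, was at 147, 196 and 118 RPKM in WT NS and at 67.3, 65.9 and 69.3 RPKM in WT 5dw. In Act the libraries overlapped, at 85.6, 169 and 134 RPKM in NS and 98.8 and 61.5 RPKM in 5dw. It fell in WT (log2FC -1.15, SE 0.267, adjusted p = 0.00399, after median-ratio scaling -0.67 with adjusted p = 0.0487) and its Act value was -0.67 (adjusted p = 0.0864). Of its 100-base stretches, 98.4% occur in other genes. Rpl21, of the large subunit, was at 45.2, 51.3 and 54.2 RPKM in WT NS and at 29.2, 31.8 and 27.7 RPKM in WT 5dw. It fell in WT (-0.75, SE 0.196, adjusted p = 0.00733), a call lost after median-ratio scaling (-0.28, adjusted p = 0.159), while its Act value was -0.12 (adjusted p = 0.686) with overlapping libraries of 30.5, 52.3 and 49.6 RPKM in NS and 44.9 and 34.8 RPKM in 5dw. The genotypes were not shown to differ for Rpl21, since the interaction was 0.64 (95% interval -0.01 to 1.29, unadjusted p = 0.0538, adjusted p = 0.999).

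Rps6, the small-subunit protein phosphorylated by the S6 kinases downstream of mTOR, was at 270, 321 and 283 RPKM in WT NS and at 204, 199 and 204 RPKM in WT 5dw. In Act it was at 186, 321 and 284 RPKM in NS and at 189 and 178 RPKM in 5dw, the low value of NS being that of replicate 1. The WT log2FC was -0.52 (SE 0.185, adjusted p = 0.0317) and was -0.04 after median-ratio scaling (adjusted p = 0.835). Rpl22, Rps15, Rpl4, Rps9, Rpl23a, Rpl35a, Rpl36 and Rpl37a were also among the 15. Their log2FC ran from -0.66 (Rpl35a) to -0.38 (Rps9), and after median-ratio scaling none of them was called, with Rpl4 at 0.074, Rps9 at 0.09 and Rpl37a at 0.06, on the other side of zero. Of the 15, only Rpl36a, Rps27, Rpl10, Rpl39l, Rpl21 and Rpl22 kept an adjusted p under 0.05 without any 1 library.

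At the other end, the 5 highest log2FC in WT belonged to Rpsa (0.23), Rpl41 (0.20), Rpl24 (0.09), Rps27l (0.04) and Rpl30 (0.03), none of them called on the deposited scale. Rpl41, the smallest ribosomal protein, was at 305, 303 and 258 RPKM in WT NS and at 351, 314 and 328 RPKM in WT 5dw. It was the only member whose WT wound libraries all exceeded the WT normal ones (44 members had them all below, and of all genes 11.4% were above and 55% below). In Act it overlapped, at 221, 311 and 257 RPKM in NS and 295 and 343 RPKM in 5dw. Its log2FC was 0.20 (SE 0.152, adjusted p = 0.273) and after median-ratio scaling 0.68 (adjusted p = 0.00300) in WT and 0.66 (adjusted p = 0.00755) in Act.

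Rpsa, the small-subunit protein also known as the laminin receptor, was at 463, 464 and 354 RPKM in WT NS and 540, 452 and 500 RPKM in WT 5dw. Act NS held 396, 530 and 465 RPKM and Act 5dw 441 and 535 RPKM. The groups overlapped, and the low WT NS replicate 3 was the library in which 27.2% of the reads of Rpsa and its named pseudogenes were counted for the pseudogenes, against 0.26 to 0.58% in the other 10. With these reads added back, the WT log2FC of 0.23 became 0.08, and the median-ratio value of 0.71 (adjusted p = 0.00581) became 0.55 (adjusted p = 0.00561).

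**Figure D3:**
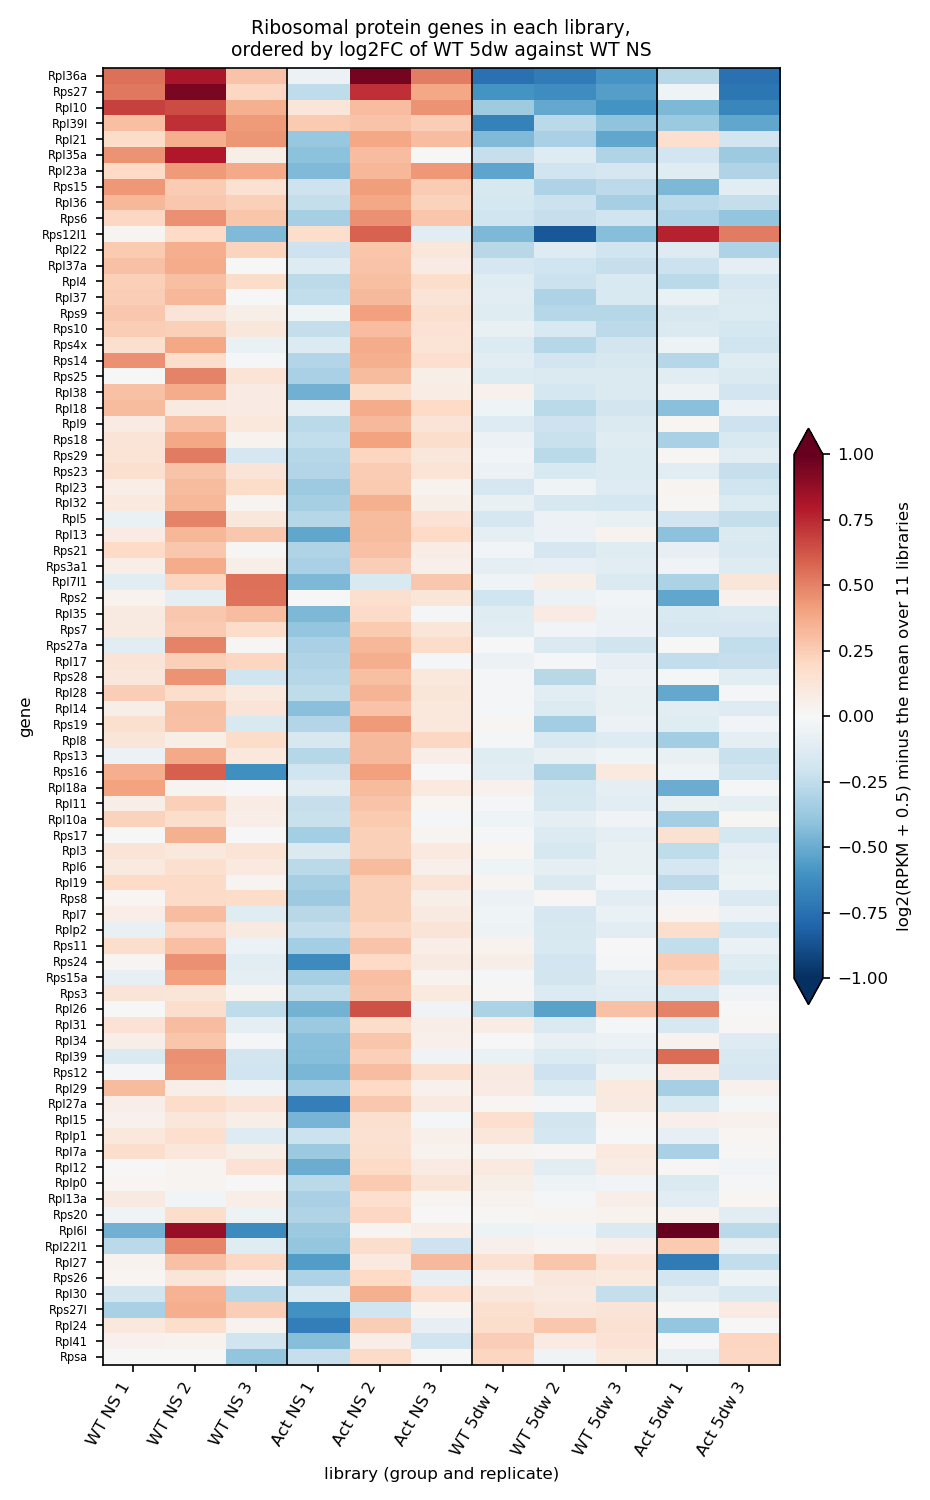
log2(RPKM + 0.5) of 82 of the 83 tested ribosomal protein genes in each of the 11 libraries as the difference from the gene's mean over all libraries (color scale from -1 to 1, stronger values at the ends of the scale). Genes are ordered by log2FC of WT 5dw against WT NS, from Rpl36a (-1.23) at the top to Rpsa (0.23) at the bottom. Act NS replicate 1 is lower than the other NS libraries for 76 of the 83 genes, and the first rows are lower in 5dw than in NS.

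In Act mice no member rose and 4 fell, among them Rpl10, Rpl36a and Rpl39l, where 9.04% of all genes rose and 36.5% fell, and the medians were -0.14 over the members and -0.31 over all genes. Limma-voom called the same 4, and 8 of the 83 members had an unadjusted p under 0.05, beside 6396 of all 11979 genes. Median-ratio scaling turned this into 7 members higher and 1 lower, with a median of 0.23, while all genes divided into 20.3% higher and 20.4% lower. Without Act NS replicate 1 that scaling gave 2 higher and 1 lower, Rpl36a, with a median of 0.14, and with the replicate block 15 higher and 1 lower. The count depended on Act NS replicate 1, since without that library 23 members were called lower in Act and 22 in WT. The Act median of the members was -0.31 without it and -0.0086 without Act NS replicate 2.

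Across both genotypes, all 5 wound libraries lay below all 6 normal ones for 5 members, among them Rpl10, Rpl36a, Rpl39l and Rps9, against 38.9% of all genes. None lay above, against 8.45% of all genes. The log2FC of the members in WT and in Act, which share no library, had a Pearson r of 0.719 over 83 genes, and that of all tested genes was 0.926 over 11979, genes not being independent.

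**Figure D4:**
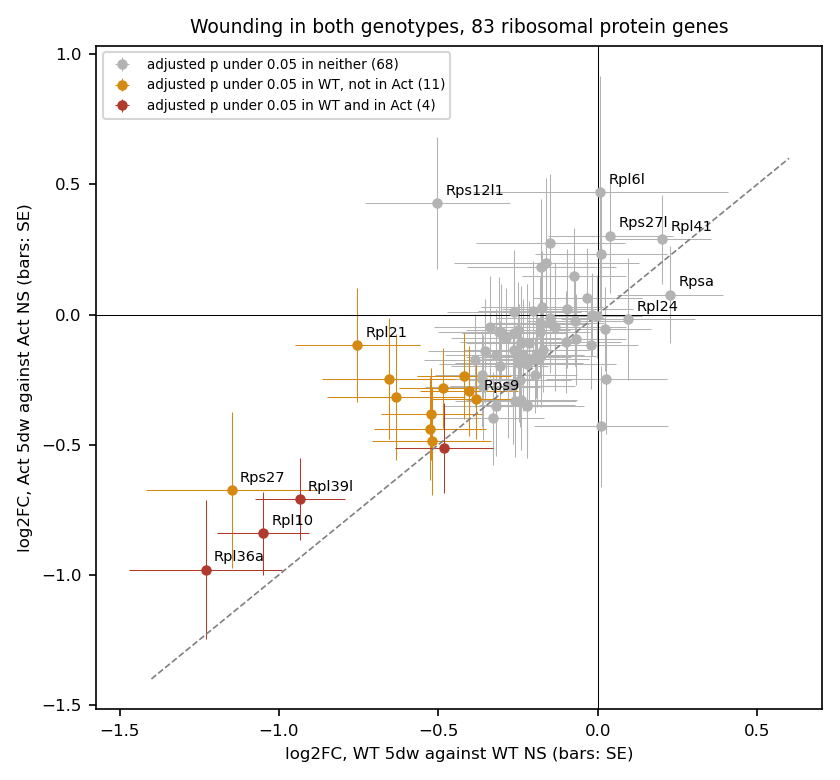
log2FC of 5dw against NS for the 83 tested ribosomal protein genes in WT (x axis) and Act (y axis), with bars for the SE and a dashed line where both are equal. Of the 83 genes, 4 are lower at adjusted p under 0.05 in both genotypes (red), 11 in WT and not in Act (orange), and 68 in neither (grey). No gene was called in the interaction.

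The question of activin overexpression was put to the same genes by comparing Act with WT in each tissue. No member was called in NS, in 5dw or in the interaction (limma, adjusted p under 0.05), and limma-voom called none either. Of all genes, 0.0167% were called in NS, 0.0334% in 5dw and 0% in the interaction. An unadjusted p under 0.05 was found for 1, 2 and 1 of the 83 members, respectively (limma-voom 1, 2 and 0), beside 824, 386 and 400 of all 11979 genes. The members' median log2FC of Act against WT was -0.13 in NS and -0.03 in 5dw, beside -0.11 and -0.04 for all genes, and after median-ratio scaling it was 0.00 and -0.01. The NS value rested on single libraries, at 0.040 when Act NS replicate 1 was left out, -0.26 when Act NS replicate 2 was, and -0.07 when WT NS replicate 2 was.

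The member furthest from zero was Rps12l1, annotated as a pseudogene of Rps12 and named here after its values were seen. It was at 0.51, 0.26 and 0.52 RPKM in WT 5dw and at 1.83 and 1.47 RPKM in Act 5dw, with no overlap. Its log2FC was 1.22 (95% interval 0.66 to 1.78, unadjusted p = 0.000561, adjusted p = 0.336). All of its 100-base stretches (100%) occur in other genes, and NS levels overlapped at 0.89, 1.08 and 0.51 RPKM in WT and 1.05, 1.56 and 0.76 RPKM in Act. Among protein-coding members, Rpl27 of the large subunit was at 16.1, 17.6 and 15.9 RPKM in WT 5dw and at 8.66 and 12.1 RPKM in Act 5dw (log2FC -0.66, unadjusted p = 0.0164, adjusted p = 1).

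Several ribosomal proteins have a second gene that codes for a nearly equal protein, and the RPKM of each such paralog was read as a percent of its main gene in the same library, a ratio that no scaling between libraries can alter. The 5 pairs with both genes tested were compared between 5dw and NS by an exact permutation test within genotypes (two-sided, 200 arrangements, smallest p 0.005), with Benjamini-Hochberg adjustment over the 5 pairs. In 4 of 5 the wound and the normal libraries did not overlap, each with an exact permutation p = 0.005 and an adjusted p of 0.00625. Such separation was common for single genes on the deposited scale, with 8.45% of all tested genes above and 38.9% below. For ratios of other gene pairs no such share was computed.

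Rpl36al, a copy of Rpl36a on another chromosome that lies outside the symbol rule, was at 75.5, 83.1 and 108% of Rpl36a in WT NS and at 220, 204 and 188% in WT 5dw. In Act it was at 85.4, 64.1 and 84.6% in NS and at 144 and 199% in 5dw. The ratio thus changed from under or near parity to well above it, by 1.15 on the log2 scale. Rpl36al itself averaged 44.4 ± 6.17 RPKM in WT NS and 43.0 ± 1.25 RPKM in WT 5dw (SD, n = 3). Of the 100-base stretches of Rpl36al, 59.0% occur in other genes.

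Rps27l, a p53 target gene and the copy of Rps27, rose as a percent of Rps27 from 15.6, 19.0 and 29.1% in WT NS to 48.0, 47.5 and 45.4% in WT 5dw. In Act it went from 22.0, 14.8 and 22.0% to 29.4 and 49.6%. Over both genotypes the difference was 1.08 on the log2 scale, and Act 5dw replicate 1, at 29.4%, came close to the highest NS library at 29.1%. Rps27l itself was at 31.5 ± 7.59 RPKM in WT NS and 31.7 ± 0.527 RPKM in WT 5dw (SD, n = 3), and none of its 100-base stretches occurs in another gene.

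Rpl22l1, which can take the place of Rpl22, was at 77.9 to 123% of Rpl22 in NS and at 126 to 149% in 5dw, a difference of 0.50 on the log2 scale. Rpl22, which binds RNA besides its place in the large subunit, fell from 51.6 ± 2.60 to 36.7 ± 1.89 RPKM in WT (SD, n = 3, adjusted p = 0.0115). Rpl22l1 was at 50.2 ± 14.9 RPKM in WT NS and 49.2 ± 0.390 RPKM in WT 5dw. Rpl39l went the other way, from 10.3 to 16.0% of Rpl39 in NS to 5.06 to 8.86% in 5dw, a difference of -0.89 on the log2 scale. Rpl39 was at 91.9 ± 24.3 RPKM in WT NS and 81.1 ± 1.96 RPKM in WT 5dw (SD, n = 3). Rpl7l1, whose protein acts in the assembly of the large subunit, held 3.27 to 6.98% of Rpl7 in NS and 3.35 to 5.05% in 5dw, with overlap (difference -0.02, exact permutation p = 0.95).

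**Figure D5:**
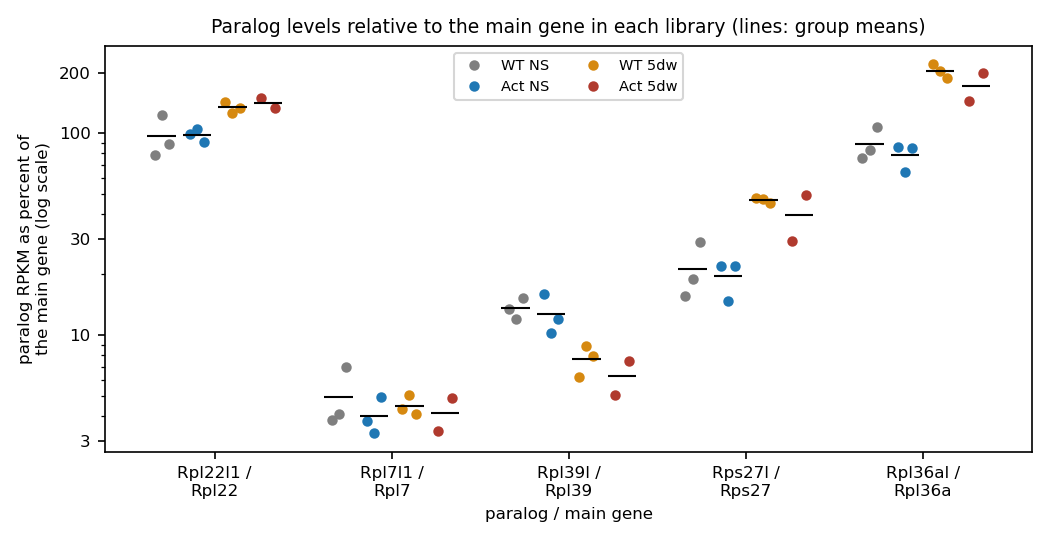
RPKM of 5 paralogs as a percent of the main gene in each library (y axis, log scale), by group, with lines at the group means. Wound and normal libraries do not overlap for Rpl22l1, Rps27l and Rpl36al, which are higher in 5dw, and for Rpl39l, which is lower, while Rpl7l1 overlaps at 3.27 to 6.98% in NS and 3.35 to 5.05% in 5dw.

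Ribosomal protein genes have left many processed pseudogenes whose sequence can take reads. The table holds 268 further symbols that carry a tested member's name and "-ps", for 58 members, and reads were recovered for 257 of them. They held 1.57 to 2.72% of the reads of each library counted for members and pseudogenes together. For 7 members they held over 10% in at least 1 library, and for Rpl34 (43.0 to 45.6%) and Rpl3 (15.3 to 22.1%) in every library. For Rps2, which forms part of the mRNA entry channel, the share varied widely between libraries, most of it on Rps2-ps13. It was 1.61 to 29.1% in NS and 27.0 to 38.6% in 5dw, with overlap between WT NS replicate 2 and Act 5dw replicate 3. Rps2 alone was at 210, 193 and 299 RPKM in WT NS and at 178, 197 and 201 RPKM in WT 5dw. Its log2FC of -0.26 in WT and -0.33 in Act became 0.17 and 0.14 with the pseudogene reads added, and after median-ratio scaling 0.65 (adjusted p = 0.00339) and 0.51 (adjusted p = 0.0224). The counts of members called did not change with these reads added, at 15 lower in WT and 4 lower in Act. Members with at most 10% of 100-base stretches shared (n = 14) and with over 50% shared (n = 36) had WT medians of -0.24 and -0.22.

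By place in the ribosome, the median WT log2FC was -0.22 over the 50 large-subunit and -0.25 over the 33 small-subunit members, with 10 and 5 called lower, where 48.8% of all genes fell and their median was -0.40. After median-ratio scaling the medians were 0.26 and 0.23. Of the large-subunit members 9 were then higher and 3 lower, and of the small-subunit members 4 and 1, where 23.4% of all genes were higher and 21.2% lower. The stalk proteins were near zero: Rplp0 at 627, 629 and 620 RPKM in WT NS and 644, 598 and 606 RPKM in WT 5dw (log2FC -0.02, adjusted p = 0.908, 0.46 after median-ratio scaling with adjusted p = 0.0123), Rplp1 at -0.07 (0.41 after scaling, adjusted p = 0.0424, or 0.0505 with the replicate block and 0.0547 without Act NS replicate 1) and Rplp2 at -0.18 (adjusted p = 0.329). Rpl5 and Rpl11, which travel with 5S rRNA and can bind the p53 regulator Mdm2, had log2FC of -0.28 (adjusted p = 0.200) and -0.22 (adjusted p = 0.206). After median-ratio scaling the median of this pair was 0.23, with neither gene called. The 4 tested members on the X chromosome, Rpl10, Rpl36a, Rpl39 and Rps4x, had log2FC of -1.05, -1.23, -0.15 and -0.36. Rps4l, a pseudogene under the filter, was at 0 to 0.14 RPKM in NS and 0.49 to 0.93 RPKM in 5dw, and in the fit without a filter it rose in WT (0.95, SE 0.135, adjusted p = 0.000899) and in Act (0.98, adjusted p = 0.00205), where 5.67% and 5.31% of all genes rose.

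Other genes of the translation machinery were read from lists, on the same scale, on which 48.8% of all genes fell in WT with a median of -0.40 and 36.5% fell in Act. After median-ratio scaling, 23.4% of all genes were higher and 21.2% lower in WT, and 20.3% and 20.4% in Act. Of 4 further genes for ribosome-associated proteins, Fau, whose product includes a small-subunit protein, fell (log2FC -0.41, adjusted p = 0.0385, up to 0.119 without 1 of 5 WT libraries, and 0.07 after median-ratio scaling), and Gnb2l1, the gene for Rack1 (-0.01), and Rpl36al (-0.03) were not called. After median-ratio scaling Gnb2l1 was at 0.47 (adjusted p = 0.0108) and Rpl36al at 0.44 (adjusted p = 0.0216), both higher. Of 47 translation factors, 1 rose and 11 fell in WT (1 and 3 in Act), with a WT median of -0.24. After median-ratio scaling 8 were higher and 1 lower in WT (median 0.22), and 7 and 1 in Act (median 0.18). Pabpc1, the poly(A)-binding protein, rose in WT from 108 ± 12.9 to 157 ± 8.23 RPKM (SD, n = 3, log2FC 0.54, adjusted p = 0.0144, or 0.0531 without WT 5dw replicate 3). The helicase Eif4a2 fell from 49.6 ± 1.79 to 22.3 ± 0.318 RPKM (-1.13, adjusted p = 3.08e-05) and Eif3j1 fell by 0.72 (adjusted p = 0.0149), a call lost after median-ratio scaling (-0.28, adjusted p = 0.281) or without WT 5dw replicate 1 (adjusted p = 0.0508) or WT NS replicate 2 (0.0533), while Eef1g, part of elongation factor 1, was at 0.25 (adjusted p = 0.226, after scaling 0.72 with adjusted p = 0.0016).

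Of 77 ribosome biogenesis genes, 2 rose and 30 fell in WT, with a median of -0.44, and 3 rose and 10 fell in Act. After median-ratio scaling 7 were higher and 2 lower in WT, with a median of -0.02, and 7 and 3 in Act, with a median of 0.03. Npm1, the abundant nucleolar chaperone nucleophosmin, rose from 98.7 ± 26.3 to 152 ± 5.38 RPKM in WT (SD, n = 3, log2FC 0.65, adjusted p = 0.0227), and Noc4l, a factor of small-subunit maturation, rose by 0.57 (adjusted p = 0.0129). On the deposited scale the call of Npm1 was lost without WT 5dw replicate 1 or 2 or WT NS replicate 1 or 3 (adjusted p up to 0.0854), and that of Noc4l when either WT NS replicate 3 or WT 5dw replicate 1 was left out (up to 0.0568). Sbds, which helps release eIF6 from the new large subunit, fell from 28.6 ± 2.30 to 10.8 ± 0.935 RPKM (-1.36, adjusted p = 4.56e-05, -0.89 after scaling). Nop58, a core protein of box C/D small nucleolar particles, fell by 1.12 (adjusted p = 0.00689), a call lost after median-ratio scaling (-0.66, adjusted p = 0.0743). Of 19 RNA polymerase I genes, none rose and 10 fell in WT (median -0.46, with 1 higher and 2 lower after median-ratio scaling), a share near that of all genes, with the lowest values for Taf1a (-0.85, adjusted p = 0.00168) and Taf1b (-0.82, adjusted p = 0.000571), parts of the promoter selectivity factor, and of 10 host genes of small nucleolar RNAs 1 rose and 5 fell, or 3 and 1 after median-ratio scaling. Snhg12 fell by 0.86 (adjusted p = 0.000179) and Snhg18 rose by 0.41 (adjusted p = 0.0204), a call lost without WT 5dw replicate 1 or 3 or WT NS replicate 3 (adjusted p up to 0.0841).

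Of 25 growth control genes around mTOR and Myc, 1 rose and 15 fell in WT (1 and 10 in Act), where 48.8% and 36.5% of all genes fell. After median-ratio scaling 5 were higher and 6 lower in WT (3 and 7 in Act), where 23.4% of all genes were higher and 21.2% lower in WT. Eif4ebp1, which encodes the mTOR target that holds back eIF4E, rose from 14.6 ± 3.08 to 33.0 ± 1.35 RPKM in WT (SD, n = 3, log2FC 1.16, adjusted p = 0.000682). Pdcd4, an inhibitor of eIF4A, fell from 13.2 ± 2.35 to 4.14 ± 0.214 RPKM (-1.54, adjusted p = 1.80e-05) and Maf1, a repressor of RNA polymerase III, fell by 1.28 (adjusted p = 0.000195). Both remained lower after median-ratio scaling, at -1.10 and -0.83. Of 72 mitochondrial ribosomal protein genes, 2 rose (Mrpl34 0.73, and Mrpl17 0.63, a call lost when either WT NS replicate 2 or WT 5dw replicate 1 was left out, with adjusted p up to 0.0609) and 13 fell in WT, with a median of -0.10, and after median-ratio scaling 35 were higher and 0 lower in WT (34 and 1 in Act, from 4 and 5), where in WT 23.4% of all genes were higher and 21.2% lower. Of 65 tested pseudogenes of ribosomal proteins, 2 rose and 14 fell in WT and 5 rose and 5 fell in Act, or 4 and 6 in WT and 11 and 2 in Act after median-ratio scaling.

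Markers of other cell types moved with the tissue as well. Of 14 keratinocyte genes, none rose and 12 fell in WT wounds, with a summed level of 1276 to 4748 RPKM in NS and 128 to 1077 RPKM in 5dw, the last in WT 5dw replicate 3. Of 5 tested Schwann cell genes 1 rose and 4 fell (117 to 161 RPKM summed in NS and 47.6 to 55.6 in 5dw). The summed levels were 12.9 to 20.5 and 22.6 to 29.5 RPKM for 9 macrophage genes, 13.4 to 17.2 and 10.1 to 13.7 for 10 pan-immune genes, 23.2 to 40.4 and 22.1 to 29.2 for 10 endothelial genes, 56.5 to 113 and 67.2 to 113 for 8 pericyte genes and 68.4 to 128 and 46.0 to 69.8 for 8 adipocyte genes. Genes within a list went both ways. Of 4 tested macrophage genes 2 rose and 0 fell in WT, and of 4 tested endothelial genes 1 rose and 1 fell. From WT NS to WT 5dw, mean Cd14 went from 3.23 to 13.7 RPKM and Cd68 from 8.40 to 6.08 RPKM. Pecam1 went from 4.35 to 12.2 RPKM and Tek from 24.4 to 6.22 RPKM. The 14 fibroblast genes summed to 12810 to 18527 RPKM in NS and 24532 to 28033 RPKM in 5dw. Of them, 5 rose and 6 fell in WT (5 and 4 in Act), or 7 and 1 (6 and 4 in Act) after median-ratio scaling. In WT, Col3a1 averaged 2405 RPKM in NS and 7399 RPKM in 5dw, while Dcn averaged 4394 and 1867 RPKM. The part of these cells in the ribosomal protein values was not tested.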

How the data were processed

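RNA-seq of 11 libraries was used (3 WT NS, 3 Act NS, 3 WT 5dw, 2 Act 5dw). Per the labels and the study's methods, the authors aligned stranded single-end reads of 100 bp to GRCm38 in CLC Genomics Workbench and deposited RPKM per gene. How reads matching several genes or the other strand were counted is stated in none of the sources used. The authors' edgeR test needs counts and was not the main test.

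RPKM values were tested as log2(RPKM + 0.5) with limma 3.58.1 (R 4.3.3; lmFit, trended eBayes, 1 mean per group, 7 residual degrees of freedom), for 11979 genes with at least 1 RPKM in at least 2 libraries, with Benjamini-Hochberg adjustment over all of them. A log2FC on this scale understates changes of low genes. Whole reads came out (tolerance 0.03) for 11974 genes (99.96%) and were used for limma-voom, which called 15 members lower in WT. Scripts were tested on simulated data.

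Named were the 5 members highest and lowest by level and by WT log2FC, stalk, 5S, Rpsa, Rps6 and paralog genes, and the 2 extreme genes of each list; others were chosen after their values were seen. Members and lists were chosen with earlier results of these data known. Same-numbered libraries deviated together for wounding in WT (r = 0.188, 0.120 and 0.109) and for genotype in NS (0.554, 0.423 and 0.334), but not in every pair for wounding in Act (0.0187 and 0.143) or genotype in 5dw (-0.0777 and 0.189). The main test has no block, and the fit with one is an alternative. Gene positions are from GENCODE and promoters from RefSeq (GRCm38.p6). Results for 2 genes are not reported here.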

Additional observations from a re-analysis of the deposited data

How the results depend on the processing

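Each protein-coding tested member had at least 111 reads in every library, while the untested members had at most 29 reads in any library. The limits are the 2 to 3 pools per group and the scaling. The settings named here beyond those planned (member-median scaling, pseudogene reads, the block with scaling, median-ratio scaling without Act NS replicate 1) were chosen after seeing the data. Without 1 library at a time, 7 to 22 members were lower in WT (7 without WT 5dw replicate 3, 22 without Act NS replicate 1) and 3 to 23 in Act. The replicate block gave 15 lower in WT and 3 in Act, and changed no other count of members past the adjusted threshold. It moved those at an unadjusted p under 0.05 from 19 to 20 in WT, 8 to 4 in Act, 1 to 2 for genotype in NS, 2 to 3 in 5dw and 1 to 2 for the interaction. No genotype or interaction call of a member appeared in any setting.

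Median-ratio scaling gave 13 higher and 4 lower in WT, and 7 and 1 in Act. Without Act NS replicate 1 it gave 13 and 4, with Rpl27 and Rpl27a in place of Rpl30 and Rplp1, and 2 and 1. With pseudogene reads it gave 14 and 4, and 9 and 1, and with the block 15 and 4, and 15 and 1. Member-median scaling gave 2 higher and 5 lower in WT and 1 higher and 3 lower in Act. No filter gave 1 higher in each genotype (Rps4l) and 9 lower in WT. Array weights gave 29 lower in Act, and quantile normalization 1 higher and 2 lower there. Median-ratio scaling, alone, without Act NS replicate 1, with pseudogene reads or with the block, put Rpl4 at 0.074, 0.070, 0.074 and 0.074, Rplp0 at 0.46, 0.45, 0.46 and 0.46, and Rpl36al at 0.44, and Rplp1 at 0.41, 0.40, 0.41 and 0.41, called alone and with pseudogene reads (adjusted p = 0.0547 without Act NS replicate 1 and 0.0505 with the block). The Rpl7l1 to Rpl7 ratio turned to 0.115, 0.0580, 0.0124 and 0.112 without WT NS 3, Act NS 3, WT 5dw 3 or Act 5dw 1, and was lowest, at -0.15, without Act 5dw 3.

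For the lists in WT (higher and lower), the order is median-ratio scaling, that without Act NS replicate 1, with pseudogene reads, with the block, member-median scaling and quantile normalization. Biogenesis gave 7 and 2, 8 and 2, 7 and 2, 10 and 3, 4 and 7, and 6 and 4. Translation factors gave 8 and 1, 9 and 1, 8 and 1, 11 and 1, 3 and 2, and 3 and 4. Mitochondrial ribosomal proteins gave 35 and 0, 33 and 1, 35 and 0, 37 and 2, 4 and 1, and 30 and 1. Polymerase I gave 1 and 2, 1 and 2, 1 and 2, 1 and 2, 0 and 2, and 1 and 0. Scaling by the sum of non-members gave 4, 2 and 5 higher for the first 3 lists, array weights 49 lower for biogenesis and 18 for translation factors, and a filter of 5 RPKM 1 mitochondrial gene higher and 4 polymerase I genes lower. Without 1 library, biogenesis ran from 0 to 2 higher and 13 to 46 lower, translation factors 0 to 1 and 6 to 16, mitochondrial 1 to 5 and 9 to 18, and polymerase I 0 to 0 and 6 to 12. Why these counts moved was not tested beyond the shift of all genes that scaling makes.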
